A study of Mus musculus with 6 samples.

Results

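The genes described here encode the nuclear-encoded subunits of the mitochondrial respiratory chain and of ATP synthase. They were chosen by name alone: every gene whose symbol starts with Nduf, Uqcr, Cox4, Cox5, Cox6, Cox7, Cox8 or Atp5, and Sdha, Sdhb, Sdhc, Sdhd and Cyc1. The array carried 94 such genes, measured by 125 probes, among 20659 genes with a symbol and 39429 probes in all. They comprised 36 subunits of complex I, 8 complex I assembly factors, 4 subunits of complex II, 9 of complex III, 11 of complex IV and 17 of complex V. The remaining members were 8 tissue-restricted isoforms of complex IV subunits and the supercomplex factor Cox7a2l. Symbols are those of the RefSeq annotation used, which keeps older names such as Atp5a1.

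The study compared spleens of male ICR mice, an outbred stock, 8 weeks old at purchase, on 1-colour Agilent arrays. All mice had received 40 mg/kg cyclophosphamide, an alkylating immunosuppressant, by intraperitoneal injection for 5 days. The 3 MOD arrays (1, 2 and 3) came from mice given cyclophosphamide alone, labelled as day 5, and the 3 SA-H arrays (4, 5 and 6) from mice then given 1000 mg/kg/day of schisandrol A, a lignan of Schisandra chinensis, labelled as day 28. The protocol states that the MOD mice were also kept for 4 weeks on distilled water, so as labelled the drug and the sampling day cannot be told apart. No mice without cyclophosphamide were measured on these arrays. The labels do not say whether an array held 1 mouse or a pool, so the p-values measure the spread between these arrays.

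The respiratory chain of the inner mitochondrial membrane passes electrons from NADH (complex I) and succinate (complex II) through coenzyme Q to complex III, then through cytochrome c to complex IV, which reduces oxygen. Complexes I, III and IV pump protons, and complex V, the ATP synthase, lets them flow back through its membrane part while its catalytic head makes ATP. Most subunits are encoded in the nucleus and the rest in mitochondrial DNA, for which the array had 0 named probes here. In the spleen, erythroid precursors and lymphocytes that enter division are known to be rich in mitochondrial activity.

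Many of these genes are known targets of the nuclear transcription factors NRF1, GABP (an ETS factor) and YY1. RefSeq promoter windows (GRCm38.p6, 250 bases before to 50 after a start site) were found for 76 of the 94 genes, and exact matches were sought on both strands. The NRF1 core GCGCATGC lay in 12 of these windows (15.8%) and in 3.61% of the windows of 17492 protein-coding genes. The ETS motif CCGGAAG lay in 18 (23.7%, against 11.9%) and the YY1 motif AAGATGGCG in 7 (9.21%, against 1.92%). At least 1 of the motifs was present in 31 of the 76 windows (40.8%, against 16.2%), and in 0 of the 4 windows of tissue-restricted isoforms. A match is a run of letters and not a bound site. Printed below are the windows of the 4 genes past the unadjusted threshold for which one was found, then 3 members chosen to show the motifs together or the YY1 match. Capitals mark the NRF1 core in Ndufa6 and Ndufaf5, the NRF1 core and the ETS motif in Sdhb and Uqcr11, and the YY1 motif in Ndufs7, on either strand. The windows are chr15:82354242-82354541 (minus strand) for Ndufa6, chr2:140170396-140170695 (plus) for Ndufaf5, chrX:20617570-20617869 (minus) for Ndufb11 and chr16:91931581-91931880 (minus) for Atp5o. They are chr4:140961021-140961320 (plus) for Sdhb, chr10:80406772-80407071 (minus) for Uqcr11 and chr10:80249199-80249498 (plus) for Ndufs7.
Ndufa6: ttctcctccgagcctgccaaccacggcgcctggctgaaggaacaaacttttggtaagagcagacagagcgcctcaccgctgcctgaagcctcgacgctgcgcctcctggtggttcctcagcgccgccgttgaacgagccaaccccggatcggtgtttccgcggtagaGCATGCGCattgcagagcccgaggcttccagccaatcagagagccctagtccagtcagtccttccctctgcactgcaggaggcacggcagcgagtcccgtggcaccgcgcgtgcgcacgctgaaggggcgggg
Ndufaf5: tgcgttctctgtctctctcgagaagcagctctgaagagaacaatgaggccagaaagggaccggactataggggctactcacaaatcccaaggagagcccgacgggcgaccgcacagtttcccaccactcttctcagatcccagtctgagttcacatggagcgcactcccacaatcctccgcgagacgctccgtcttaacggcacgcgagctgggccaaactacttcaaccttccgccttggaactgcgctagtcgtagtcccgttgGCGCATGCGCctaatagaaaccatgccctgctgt
Ndufb11: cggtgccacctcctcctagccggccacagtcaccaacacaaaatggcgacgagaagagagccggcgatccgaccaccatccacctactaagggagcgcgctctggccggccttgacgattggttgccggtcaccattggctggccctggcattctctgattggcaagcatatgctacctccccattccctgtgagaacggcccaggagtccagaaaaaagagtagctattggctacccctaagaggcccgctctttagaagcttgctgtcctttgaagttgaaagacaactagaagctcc
Atp5o: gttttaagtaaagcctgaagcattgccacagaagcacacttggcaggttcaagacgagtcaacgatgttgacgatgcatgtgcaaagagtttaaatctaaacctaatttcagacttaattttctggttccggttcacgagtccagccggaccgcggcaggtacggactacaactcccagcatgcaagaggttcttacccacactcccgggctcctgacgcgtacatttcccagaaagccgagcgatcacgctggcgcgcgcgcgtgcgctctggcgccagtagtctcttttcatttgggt
Sdhb: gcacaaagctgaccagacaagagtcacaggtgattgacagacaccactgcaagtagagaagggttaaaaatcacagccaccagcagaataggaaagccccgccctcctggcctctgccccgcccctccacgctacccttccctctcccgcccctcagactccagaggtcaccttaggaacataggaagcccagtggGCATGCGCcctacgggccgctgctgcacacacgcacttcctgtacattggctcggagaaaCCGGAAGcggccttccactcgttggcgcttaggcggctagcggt
Uqcr11: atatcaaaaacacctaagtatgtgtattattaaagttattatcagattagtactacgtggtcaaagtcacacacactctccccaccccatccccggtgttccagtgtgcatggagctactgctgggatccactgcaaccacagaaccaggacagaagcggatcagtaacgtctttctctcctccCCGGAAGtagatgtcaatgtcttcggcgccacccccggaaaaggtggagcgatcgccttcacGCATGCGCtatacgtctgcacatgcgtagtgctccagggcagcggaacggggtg
Ndufs7: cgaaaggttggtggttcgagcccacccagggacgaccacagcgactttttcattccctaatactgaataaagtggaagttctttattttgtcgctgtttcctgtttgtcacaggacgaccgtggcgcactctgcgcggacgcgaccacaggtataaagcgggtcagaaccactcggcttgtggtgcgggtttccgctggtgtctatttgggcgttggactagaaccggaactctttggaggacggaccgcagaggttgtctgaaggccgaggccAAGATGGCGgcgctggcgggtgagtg
The windows of Ndufb11 and Atp5o held none of the 3 motifs.

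Levels below are log2 of the processed signal relative to the 75th percentile of the array, and differences are SA-H minus MOD. That percentile ranged from 599 to 840 in MOD and from 220 to 868 in SA-H. The share of spots well above background ran from 43.1% to 73.9%, with 0 saturated spots. Array 4 was scanned on the same day as MOD array 2, array 6 on the same day as MOD arrays 1 and 3, and array 5 on another day that holds no MOD array. Arrays 1 and 3 shared an extraction time in the file headers, as did arrays 2 and 4, while arrays 5 and 6 each had their own. Slide scan below means this grouping by extraction time. The labelled tissue was checked against markers. Well above background on all 6 arrays were 7 of 10 B cell markers, 10 of 10 T cell markers and 10 of 10 erythroid markers, against 2 of 8 liver, 1 of 11 muscle, 1 of 8 fat and 2 of 9 pancreas markers.

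Of the 94 genes, 90 passed the filter (each array of at least one group well above background) and were tested, 83 of them well above background on all 6 arrays. For Ndufa6, Atp5o and Cox7c the spot on array 5 was left out as an outlier, which counted as not well above background. The 4 others were the tissue-restricted isoforms Cox7b2 and Cox8c (above background on 0 arrays), Cox8b (on 2) and Ndufa4l2 (on 3). With limma, 5 of the 90 genes (5.56%) passed an unadjusted p of 0.05, against 23.8% of all 14829 features tested. Ndufa6, Ndufaf5, Cox6a2 and Atp5o were higher in SA-H (11.7% of all features were higher) and Ndufb11 was lower (12.2% of all features were lower). Ndufaf5 and Cox6a2, which were not well above background on MOD array 1, passed the filter only through the group where they were high. A fold of at least 2 with the same p was met by 3 of them, Ndufa6, Atp5o and Cox6a2, against 13.7% of all features. After Benjamini-Hochberg adjustment over all features 0 members passed 0.05, as did 0 of all features by this test; the smallest adjusted p was 0.0865 among the members and 0.0614 in all.

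Most of these genes differed little between the groups. Their median difference was 0.02, with 46 positive and 44 negative, and the median of all features was -0.02. The median absolute difference was 0.27 for the members and 0.47 for all features, and 71 members (78.9%) lay within 0.5 of no change against 52.5% of all features. The standard errors were alike in size, with medians of 0.30 and 0.32. For 49 of the 90 genes the 95% interval lay within a log2 difference of 1 either way, and for the other 41 it reached beyond a 2-fold difference. The arrays of the groups did not overlap for 18 members (20.0%), 5 higher and 13 lower, against 33.4% of all features.

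**Figure D1:**
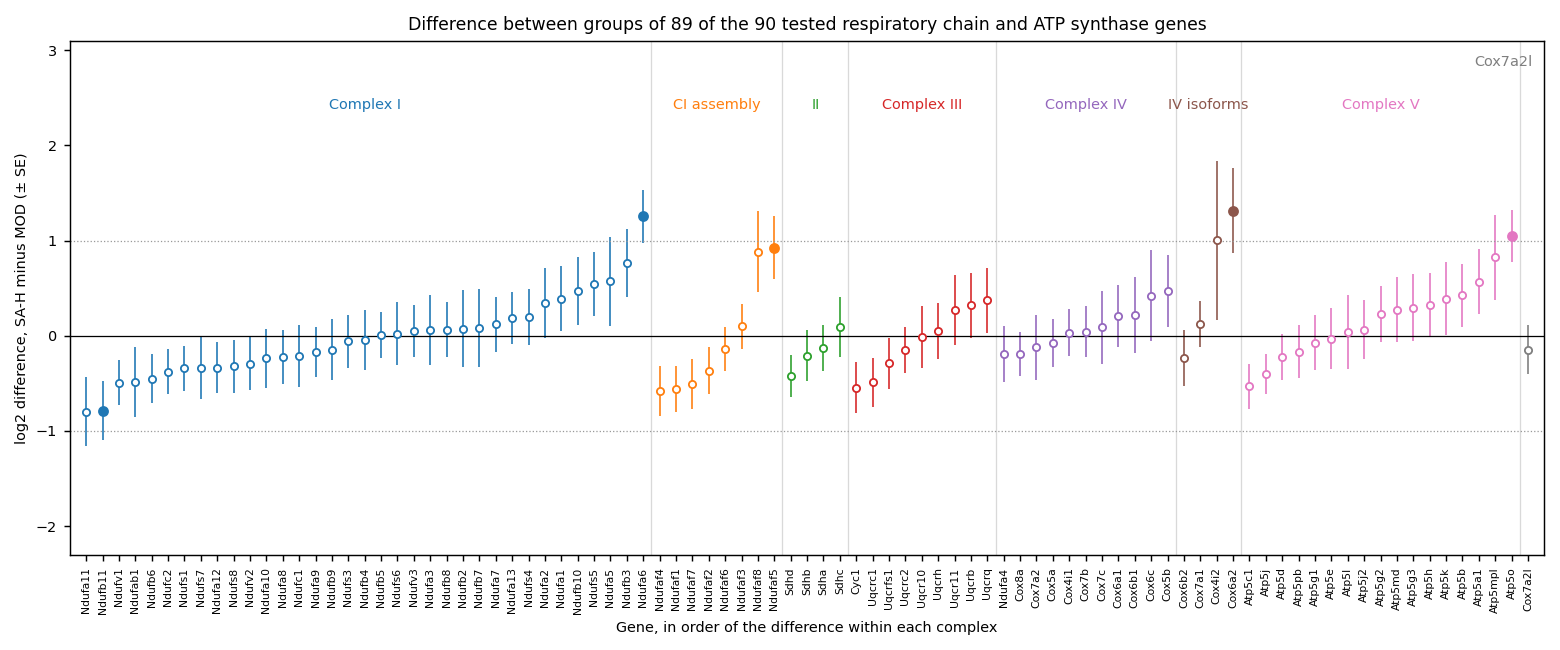
Log2 difference between SA-H and MOD (vertical axis, points with SE bars from limma) for 89 of the 90 tested genes, grouped by complex; filled points are past an unadjusted p of 0.05 and dotted lines mark a 2-fold difference. Most genes lie within 0.5 of zero, and the 3 filled points above 1 are Ndufa6, Cox6a2 and Atp5o.

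Complex I, the NADH dehydrogenase, had 36 tested subunits, of which Ndufa6 was higher, Ndufb11 was lower and 34 did not pass. The median difference was -0.05, with 17 positive and 19 negative. Ndufa6 (chr15:82350139-82354291), an accessory subunit of the matrix arm, read 2.48, 2.0 and 2.19 in MOD and 3.45 and 3.51 on SA-H arrays 4 and 6. Both SA-H values lay well above every MOD value. Its spot on array 5 was called an outlier by the scanner software and was left out, so the fit rests on 5 arrays. The difference was 1.25 (SE 0.28, 2.39-fold, limma adjusted p = 0.0865), and it was 1.17 and 1.45 within the first and the second scan day. It was 0.96 after scaling by the array median and 0.22 in the value table of the authors, past the threshold in neither.

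Ndufb11 (chrX:20615326-20617619), an accessory subunit of the membrane arm, read 5.17, 4.99 and 5.28 in MOD and 3.84, 4.38 and 4.85 in SA-H. All SA-H arrays were below all MOD arrays, array 4 by the most. The difference was -0.79 (SE 0.31, 1.73-fold lower, limma adjusted p = 0.186). It was -0.37 within the first scan day and -1.15 within the second, and the call was lost when any array other than SA-H array 6 was left out, with differences of -0.53 to -0.87.

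The next subunits by p did not pass. Ndufa11, a membrane-arm subunit, read -2.25, -2.10 and -2.15 in MOD and -3.75, -2.65 and -2.48 in SA-H, a difference of -0.80 (SE 0.36, limma adjusted p = 0.232). It was not well above background on array 4 and passed the filter through the MOD arrays. Ndufv1, the core subunit that binds NADH, read 4.21, 4.03 and 3.97 against 3.74, 3.32 and 3.66, a difference of -0.49 (SE 0.24, limma adjusted p = 0.247). In both genes the SA-H arrays lay below the MOD arrays without overlap, as they did in Ndufb6 (-0.45, SE 0.26) and Ndufc2 (-0.38, SE 0.24). Ndufb3, another membrane-arm subunit, went the other way with 2.90, 2.51 and 2.52 in MOD and 4.11, 2.84 and 3.29 in SA-H, a difference of 0.77 (SE 0.36, limma adjusted p = 0.241) in which the groups overlapped. The second kept probe of Ndufb6 gave 0.17, with overlapping groups.

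The catalytic core of complex I and its accessory subunits were laid side by side after the values had been seen, so the split is a description. Of the nuclear-encoded core subunits, which carry the flavin, the iron-sulfur clusters and the quinone site, 6 were set against the rest (Ndufs1, Ndufs3, Ndufs7, Ndufs8, Ndufv1 and Ndufv2). All 6 had negative differences, from -0.49 to -0.06 with a median of -0.33, and 0 of them passed p. On SA-H array 5 all 6 lay below all MOD arrays, as did 73.6% of the members and 42.7% of all features, but in the value table of the authors 0 of the 6 did. The 29 accessory subunits had a median of 0.05, with 17 positive and 12 negative. All 6 core differences were also negative after scaling by the array median, quantile normalization and normexp, and in the value table of the authors, where their median was -0.12. It was 5 of 6 with scan day or slide scan as a block and without SA-H array 5.

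The complex I assembly factors, which build the complex and do not remain in it, had a median difference of -0.25, with 1 of 8 past the threshold. Ndufaf5 (chr2:140170584-140218965), known from human cells as a hydroxylase that modifies the core subunit NDUFS7, read -3.55, -3.41 and -3.36 in MOD and -1.84, -2.98 and -2.72 in SA-H. All SA-H arrays were above all MOD arrays, and array 4 stood well above the other two. The difference was 0.93 (SE 0.33, 1.90-fold, limma adjusted p = 0.162). The probe was not well above background on MOD array 1 and passed the filter through the SA-H arrays, and the call was lost without any one MOD array and under each other scaling tried.

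Ndufaf8, which acts with NDUFAF5 in human cells, read 0.40, 1.1 and -0.07 in MOD and 2.05, 1.17 and 0.86 in SA-H, a difference of 0.88 (SE 0.42, limma adjusted p = 0.248) with overlap. Ndufaf1, Ndufaf4 and Ndufaf2 lay lower on every SA-H array than on any MOD array without passing, with differences of -0.56 (SE 0.24, limma adjusted p = 0.218), -0.58 (SE 0.26) and -0.37 (SE 0.25). Ndufaf1 takes part in building the membrane arm. Ndufaf7, a methyltransferase that acts in building the complex, had a difference of -0.51 (SE 0.26), with overlap. The second kept probe of Ndufaf4 gave 0.15.

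Complex II, succinate dehydrogenase, had 0 of 4 subunits past the threshold and a median difference of -0.17. Sdhd, a membrane anchor, read 3.56, 3.32 and 3.5 in MOD and 3.0, 2.95 and 3.16 in SA-H, all SA-H arrays lying below the MOD arrays, with a difference of -0.43 (SE 0.22, limma adjusted p = 0.277). The other anchor Sdhc had a difference of 0.09 (SE 0.31), and its second probe gave -0.66. Sdha, the flavoprotein, and Sdhb, the iron-sulfur subunit, had differences of -0.13 (SE 0.24) and -0.21 (SE 0.27) with overlapping groups.

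Complex III, which passes electrons from coenzyme Q to cytochrome c, had 0 of 9 subunits past the threshold and a median of -0.01. Cyc1, cytochrome c1, read 2.90, 2.72 and 2.88 in MOD and 1.96, 2.20 and 2.71 in SA-H, a difference of -0.54 (SE 0.27, limma adjusted p = 0.260). Uqcrc1, a core subunit, read 3.01, 2.85 and 2.52 against 2.04, 2.40 and 2.48, a difference of -0.49 (SE 0.26, limma adjusted p = 0.282). Neither gene had overlapping groups, although array 6 lay just below the lowest MOD array in both. The Rieske iron-sulfur protein Uqcrfs1 had a difference of -0.29 (SE 0.27). The small subunits Uqcrq (0.37, SE 0.34), Uqcrb (0.32, SE 0.34) and Uqcr11 (0.27, SE 0.37) leaned the other way, each highest on array 4, and the 3 kept probes of Uqcrb spread from 0.32 to 1.24.

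In complex IV, cytochrome c oxidase, 0 of the 11 general subunits passed the threshold, the groups overlapped in all 11, and the differences ran from -0.19 to 0.47 with a median of 0.04. Cox5b, which had the smallest p, read 4.25, 4.25 and 3.12 in MOD and 4.72, 4.20 and 4.11 in SA-H, a difference of 0.47 (SE 0.38, limma adjusted p = 0.462) in which MOD array 3 was the low one. Cox6c followed the same course with 4.6, 4.77 and 3.53 against 5.58, 4.21 and 4.38 (0.42, SE 0.48). Cox8a (-0.19, SE 0.23), Ndufa4 (-0.19, SE 0.29), Cox6a1 (0.21, SE 0.32) and Cox6b1 (0.22, SE 0.40) made up the first 6 by p. Cox4i1, the general form of subunit IV, had a difference of 0.03 with a 95% interval from -0.55 to 0.62.

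The tissue-restricted forms of complex IV subunits were dim, except Cox6b2. Cox6b2 was well above background on all 6 arrays and read 2.22, 2.22 and 1.67 in MOD and 2.21, 1.54 and 1.65 in SA-H. Cox6a2 (chr7:128205435-128206366), the form of subunit VIa of heart and skeletal muscle, read -3.52, -2.17 and -1.94 in MOD and -1.62, -1.12 and -0.94 in SA-H. The groups did not overlap, though MOD array 3 and SA-H array 4 were close, and MOD array 1, where the probe was not well above background, was far below the rest. The probe was well above background on 2 of the 3 MOD arrays and passed the filter through the SA-H arrays, so the size of its difference, 1.31 (SE 0.45, limma adjusted p = 0.150), rests in part on an array without a measured level. It was 0.83 without MOD array 1, when it no longer passed. The call was also lost without SA-H array 5 (1.26) or 6 (1.17), with slide scan as a random block (1.15), by the methods' analysis of variance and in the value table of the authors (0.24). Of 11 striated and cardiac muscle markers, 5 (Myh4, Myh1, Myl1, Mb and Actn3) were well above background on 0 arrays and Tnni2 alone on all 6. The summed linear level of the list was 1.23 to 1.73 in MOD and 2.05 to 3.94 in SA-H. Tnni2, the only tested marker of the list, is counted in this sum and was itself called higher by limma without adjustment. Its log2 levels were -0.27, -0.14 and 0.36 in MOD and 1.72, 0.67 and 1.16 in SA-H. The sum can therefore rise through Tnni2 alone and does not show a rise of the other markers. The part of muscle in the value of Cox6a2 was not tested.

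Cox4i2, the form of subunit IV known from lung, read -2.72, -0.51 and -2.72 in MOD and 0.32, -0.84 and -2.43 in SA-H, so its difference of 1.00 (SE 0.84, limma adjusted p = 0.475) lay within the spread of the arrays. Its probe was not well above background on MOD array 1 and passed the filter through the SA-H arrays. Cox7a1, a muscle form, and Cox6b2, known from testis, had differences of 0.12 (SE 0.24) and -0.23 (SE 0.29).

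**Figure D2:**
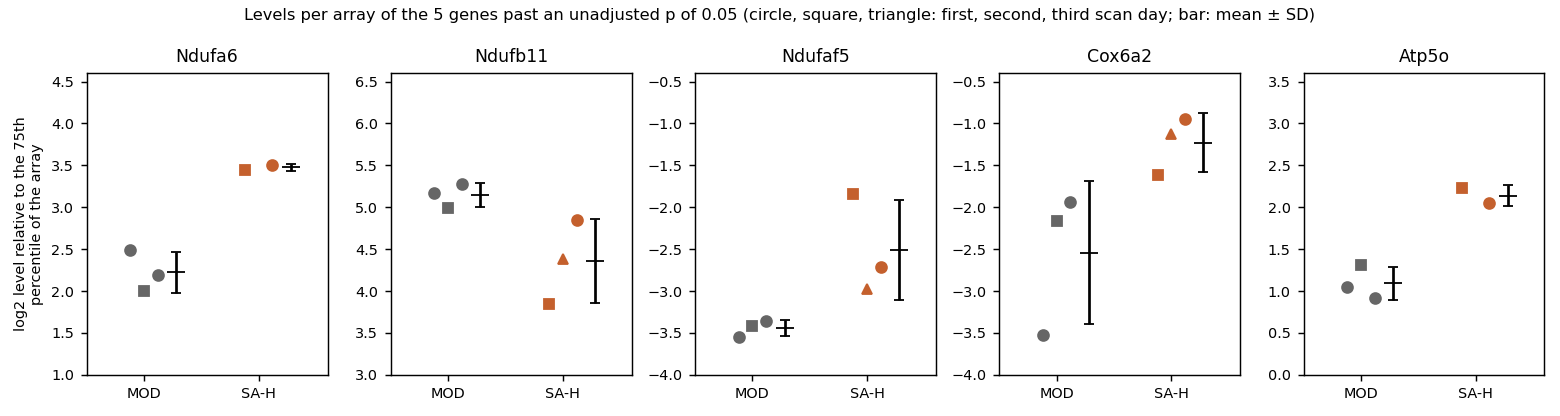
Log2 level relative to the 75th percentile of the array (vertical axis, all panels of the same span) for the 5 genes past an unadjusted p of 0.05, on MOD arrays (grey) and SA-H arrays (orange), with the mean and SD of each group; the marker gives the scan day. SA-H array 5, the triangle, is missing for Ndufa6 and Atp5o.

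Complex V, the ATP synthase, had 1 of 17 subunits past the threshold and a median difference of 0.23, with 11 positive and 6 negative, but the median turned to -0.094 after scaling by the array median, -0.089 after quantile normalization, -0.011 with normexp, -0.26 in the value table of the authors and -0.020 without SA-H array 4. Atp5o (chr16:91925223-91931630), the stator subunit that joins the stalk to the catalytic head, read 1.05, 1.31 and 0.92 in MOD and 2.22 and 2.05 on SA-H arrays 4 and 6. Both lay clearly above all MOD arrays, and the spot on array 5 was again left out as an outlier. The difference was 1.05 (SE 0.28, 2.07-fold, limma adjusted p = 0.107), with 1.07 and 0.92 within the scan days. It was 0.75 after scaling by the array median, not past the threshold, and turned to -0.33 in the value table of the authors. On this scaling array 5 was the lowest SA-H array for most of the members, so the absence of its spot bears on both Atp5o and Ndufa6; its effect was not tested.

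Other parts of the ATP synthase went in both directions without passing. Atp5j, a subunit of the peripheral stalk, read 5.18, 5.24 and 5.19 in MOD and 4.74, 4.79 and 4.86 in SA-H, a tight shift of -0.40 (SE 0.21, limma adjusted p = 0.279). Atp5c1, the gamma subunit of the rotor shaft, read 3.61, 3.28 and 3.28 against 2.7, 2.86 and 3.03, a difference of -0.53 (SE 0.24, limma adjusted p = 0.224), but its second kept probe gave 1.63. Probes of the same gene thus differed in direction, and no direction is given for Atp5c1. Atp5mpl, a small membrane subunit, read 4.82, 4.62 and 4.39 against 6.46, 4.89 and 4.95, a difference of 0.82 (SE 0.45, limma adjusted p = 0.293) carried by array 4. The catalytic-head subunits Atp5a1 and Atp5b had differences of 0.57 (SE 0.34) and 0.43 (SE 0.33).

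Several probes were kept for 21 members, and in 11 of these the probes differed in sign, Atp5c1 alone of them by more than 1. The 5 kept probes of Atp5l were all positive and spread from 0.04 to 1.52. The 3 kept probes of Cox7a2l, which helps join complexes III and IV into supercomplexes, ranged from -0.96 to -0.05, and the brightest on average gave -0.15 (SE 0.26, limma adjusted p = 0.745). The counts of calls rest on the brightest kept probe of each gene. In a limma fit over all kept probes, a dimmer probe also passed an unadjusted p of 0.05 for Ndufa5 (1.41), Atp5c1 (1.63), Atp5l (1.52), Sdhc (-0.66) and Cox7a2l (-0.96). None of these passed 0.05 after adjustment.

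The SA-H arrays differed more from each other than the MOD arrays did. The SD of the 3 arrays had a median of 0.20 in MOD and 0.41 in SA-H over the 87 members measured on all 6 arrays, and it was larger in SA-H for 69 of them (79.3%, against 66.8% of all features). Array 4 was the highest SA-H array for 61 members (70.1%, against 47.8%) and array 5 the lowest for 66 (75.9%, against 44.1%). In 51 members (58.6%, against 20.9% of all features) array 4 lay above the MOD mean while array 5 lay below it. The medians of the members relative to the MOD mean were 0.27 on array 4, -0.40 on array 5 and 0.03 on array 6.

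This order of the SA-H arrays depended on the scaling. Array 4 had the lowest 75th percentile of the 6 arrays (220) and array 5 the highest (868). The main scaling is relative to this percentile, and its part in the order was not tested. The 51 members fell to 28 after scaling by the array median (32.2%, against 15.6% of all features), to 15 after quantile normalization (17.2%, against 10.7%) and to 28 with normexp (32.2%, against 18.3%). In the value table of the authors it was 2 of 90 (2.22%, against 16.4%), but only 1 of the 6 columns of that table correlated best with its own array, so which column holds array 4 or 5 is in doubt there. The SD was larger in SA-H for 45 of the 87 members after scaling by the array median (51.7%, against 49.5% of all features), for 42 after quantile normalization (48.3%, against 62.0%), for 53 with normexp (60.9%, against 59.0%) and for 62 of 90 in the value table (68.9%, against 59.8%). These alternatives were chosen after seeing the data.

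**Figure D3:**
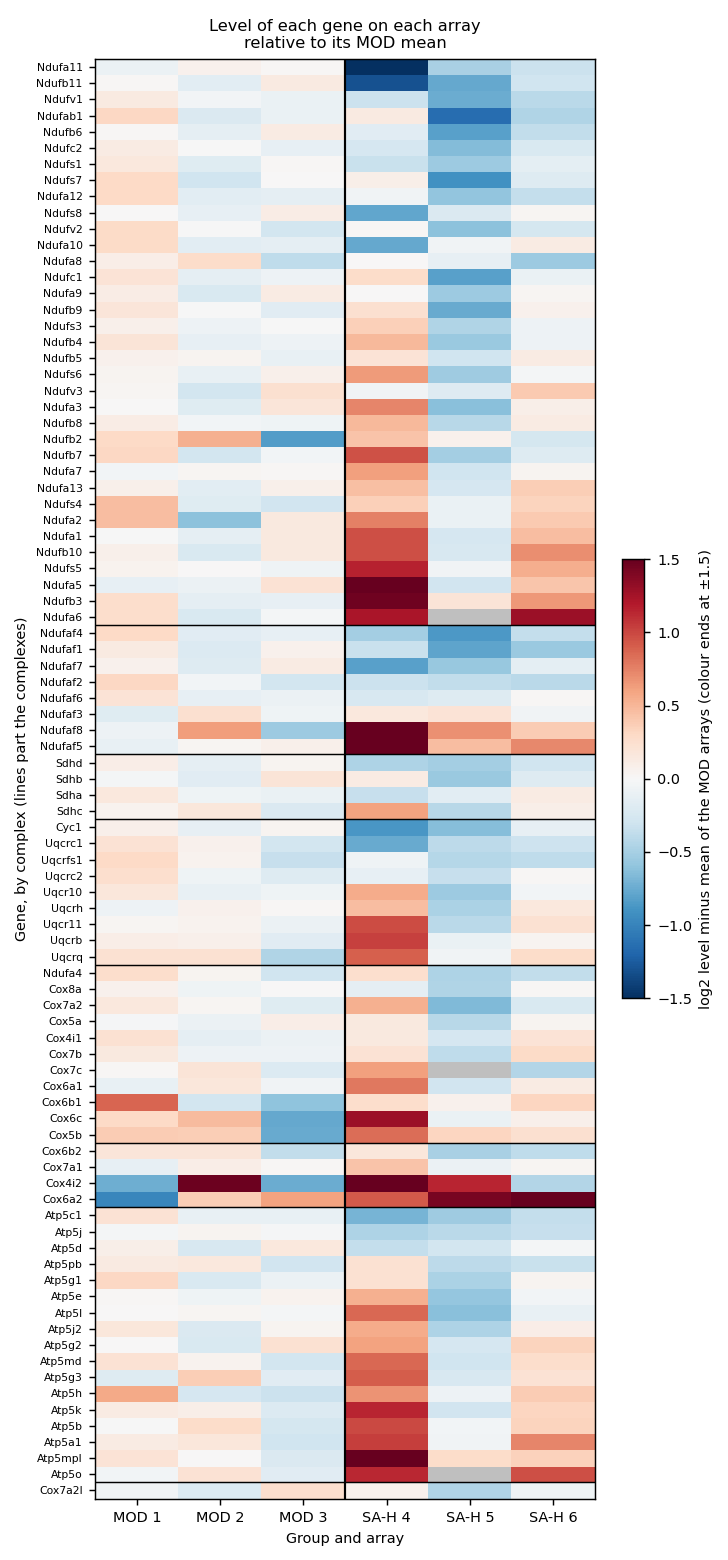
Log2 level of 89 of the 90 tested genes on each array (columns) minus the mean of the gene's MOD arrays (red higher, blue lower, colour limits at 1.5), with genes in rows by complex and missing spots in grey. On the main scaling, SA-H array 4 is mostly red and array 5 mostly blue, while array 6 lies near the MOD arrays.

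Within the scan days the members moved with the array paired. The median difference was 0.00 on the first day (array 6 against MOD arrays 1 and 3) and 0.41 on the second (array 4 against MOD array 2), where the median of all features was 0.02 and 0.09. For complex V it was 0.21 and 0.77, for complex I -0.03 and 0.37, for complex IV 0.13 and 0.43, and for the complex I assembly factors -0.14 and -0.12. With scan day as a block, 11 members were higher and 0 lower at p of 0.05 (12.2% of the members, against 30.7% of all features). Array 5, alone on its scan day, adds nothing to the group difference in that fit. The median of the members was 0.17 with this block and 0.17 without SA-H array 5, so these are not separate checks.

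Other gene groups shared part of this course. Relative to the mean of all arrays, cytosolic ribosomal protein genes had medians of 0.84, -0.20 and 0.18 on arrays 4, 5 and 6 and the complex V subunits 0.54, -0.35 and 0.07. Mitochondrial ribosomal protein genes had 0.18, -0.36 and 0.01. Of the 80 cytosolic ribosomal protein genes 15 were higher and 1 lower (20.0% called), with a median difference of 0.55, and of the 76 mitochondrial ones 0 were higher and 7 lower (9.21% called), with a median of -0.15, against 23.8% of all features called. The 10 erythroid markers had medians of 0.31, -0.72 and -0.25 on arrays 4, 5 and 6, and their summed linear level was 305 to 387 in MOD and 222 to 465 in SA-H. The 8 neutrophil markers had 0.71, -0.44 and -0.09, with a summed level of 269 to 361 in MOD and 272 to 847 in SA-H. Array 4 was instead the lowest SA-H array in the medians of the red pulp macrophage (-1.14, 0.04 and 0.20), T cell (-0.36, 0.08 and 0.13) and B cell markers (-0.09, 0.04 and 0.20). The part of these cell types in the order of the members was not tested, and in bulk spleen fewer cells of a type cannot be told from less RNA per cell.

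**Figure D4:**
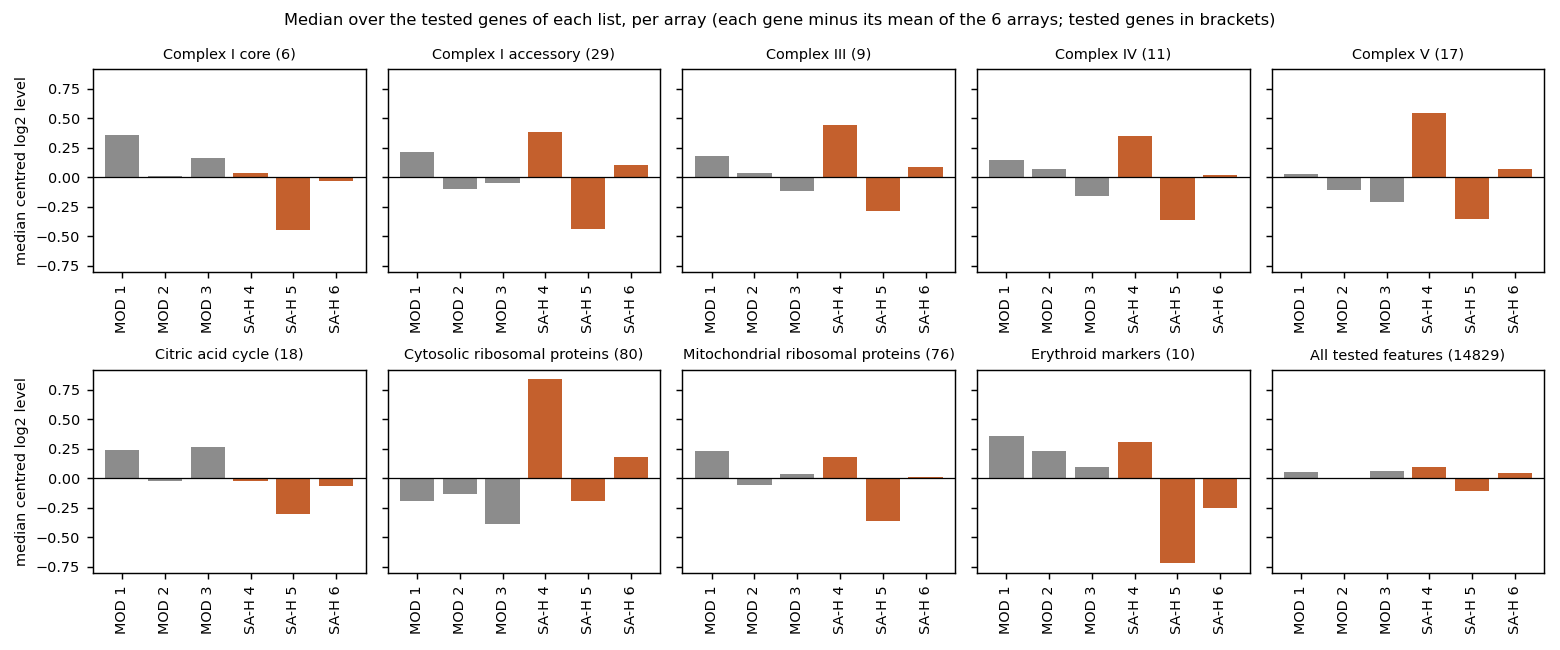
Median over the tested genes of each list (number in brackets) of the log2 level minus the gene's mean of the 6 arrays, for each MOD (grey) and SA-H (orange) array. Array 4 is high and array 5 low in complexes III, IV and V, while the citric acid cycle enzymes are below zero on all SA-H arrays and on MOD array 2.

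On the main scaling, the genes that serve the chain without belonging to it were mostly called as lower in SA-H, where they were called at all, but the value table of the authors differed, as given after the lists. Of 18 citric acid cycle enzymes, which feed NADH and succinate to complexes I and II, 5 were lower and 0 higher (27.8%, median -0.37). Idh3a, the catalytic subunit of NAD-dependent isocitrate dehydrogenase, read 1.43, 1.26 and 1.34 in MOD and -0.56, 0.21 and 0.43 in SA-H, a difference of -1.31 (SE 0.31, limma adjusted p = 0.0846). All SA-H arrays were well below all MOD arrays. Dld, the shared lipoamide dehydrogenase, fell by 0.97 (SE 0.26, limma adjusted p = 0.101) and Pdhx of the pyruvate dehydrogenase complex by 0.71 (SE 0.23, limma adjusted p = 0.138).

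Of 16 tested genes for electron carriers and coenzyme Q, 3 were lower and 0 higher (median -0.22). These were Coq10b, a coenzyme Q binding protein (-1.27, SE 0.25, well above background on 5 arrays), Dhodh, which passes electrons from pyrimidine synthesis to coenzyme Q (-0.60, SE 0.25), and Etfa, an electron transfer flavoprotein subunit (-0.58, SE 0.24). Among 20 regulators of mitochondrial genes 3 were lower and 0 higher (median -0.08). Gabpa, the DNA-binding subunit of GABP, read 0.56, 0.63 and 0.82 in MOD and -1.01, -0.48 and -0.46 in SA-H, a difference of -1.32 (SE 0.26, limma adjusted p = 0.072). Nrf1 itself read 1.61, 1.77 and 1.93 against 1.39, 0.87 and 1.04, a difference of -0.67 (SE 0.25, limma adjusted p = 0.171). Both were lower on every SA-H array than on any MOD array. Mterf3, a regulator of mitochondrial transcription, had a difference of -1.31 (SE 0.42, limma adjusted p = 0.135).

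Of 34 tested assembly factors outside the named families 2 were higher and 6 lower (median -0.10). Dmac1, a complex I assembly factor in human cells, was higher by 1.09 (SE 0.26, limma adjusted p = 0.0865), while Tmem70, an assembly factor of ATP synthase, fell by 0.96 (SE 0.28) and Cox19, which acts in copper delivery to complex IV, fell by 0.77 (SE 0.23). Of 26 carriers and import genes 1 was higher and 5 were lower (median -0.26). Ucp2, an uncoupling protein family member of the inner membrane, read 0.21, -0.06 and -0.22 in MOD and -2.09, -1.20 and -1.02 in SA-H, a difference of -1.41 (SE 0.34, limma adjusted p = 0.0859). The outer membrane channel Vdac1 fell by 0.62 (SE 0.23, limma adjusted p = 0.170) and the import receptor Tomm70a by 0.68 (SE 0.26, limma adjusted p = 0.177). The shares called in these lists, from 15.0% of the regulators to 27.8% of the citric acid cycle enzymes, lay about the 23.8% of all features. Fat markers moved the same way: of 8, 5 were tested and all 5 were lower in SA-H without overlap, with a median difference of -2.47. Over all features the groups did not overlap in 33.4%. Of these Fabp4 alone was well above background on all 6 arrays. Cidec, Car3, Adipoq and Cfd were not so on SA-H array 4 and passed the filter only through the MOD arrays, where they were high. Their direction is therefore bound up with the filter. Lep and Ucp1 were well above background on 0 arrays. The summed linear level of the list was 8.78 to 13.3 in MOD and 4.14 to 5.53 in SA-H. Only 2 of 9 pancreas markers were tested, and they went opposite ways. Ins2 was higher in SA-H by 2.59 (SE 0.70, limma adjusted p = 0.103). Cela1 had a difference of -0.84 (SE 0.44) with overlapping groups and did not pass. The part of fat or pancreas in the values of these lists was not tested.

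These calls did not hold equally. Idh3a, Dld, Coq10b, Gabpa, Dmac1, Tmem70, Cox19 and Ucp2 kept theirs when any 1 array was left out and with scan day or slide scan as a block. Of these Coq10b lost it with normexp (-0.39) and Dmac1 after scaling by the array median (0.77). Dhodh and Etfa lost it without any one array, Nrf1 without any array other than SA-H array 4, Vdac1 without any other than MOD array 2 or SA-H array 4, and Tomm70a without any other than SA-H array 5 or 6. Pdhx lost it without MOD array 3 or SA-H array 6, and Mterf3 without MOD array 1. With scan day as a block Dhodh (-0.55), Etfa (-0.44), Nrf1 (-0.58) and Vdac1 (-0.51) also lost it, as did Etfa with slide scan as a random block (-0.54). Dhodh, Etfa and Vdac1 lost it after scaling by the array median, and Dhodh and Tomm70a after quantile normalization. Without a filter Dhodh, Etfa, Nrf1, Tomm70a and Vdac1 lost it. Etfa lost it with the mean of the probes and Mterf3 by the methods' analysis of variance. In the value table of the authors the citric acid cycle enzymes had a median of -0.06 with 2 lower, the carriers and import genes -0.077 with 2 lower, and the electron carrier genes -0.012 with 2 higher and 1 lower. The other assembly factors turned to 0.10 there (6 higher, 3 lower) and the regulators to 0.22 (5 higher, 3 lower). Dhodh (0.41) and Mterf3 (0.37) turned and passed the threshold as higher in that table, and Tmem70 (0.32) and Tomm70a (0.22) turned without passing. Of the 15 genes named here outside the members, Coq10b, Nrf1 and Ucp2 remained past the threshold as lower in it, while Gabpa (-0.18) and Idh3a (-0.38) did not pass. The median of the regulators also turned with scan day (0.073) or slide scan as a block, with the mean of the probes, and without MOD array 1 or SA-H array 5.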

How the data were processed

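Per the file headers, the authors made the intensity values with Agilent Feature Extraction 11.0.1.1, which subtracts background on a linear scale without normalization between arrays. How the log2 values of the deposited table were made is not given in the sources used here. Only 1 of its 6 columns correlated best with its own array (every column at r of at least 0.82 with it), so it was used only as an alternative.

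Outlier spots were left out, spots of a probe averaged, and the signal taken as log2 relative to each array's 75th percentile. Through their RefSeq accession (GRCm38.p6) 69.1% of probes received a symbol. Probes needed a value on 2 arrays per group. Among the kept probes of a gene, the brightest on average was used. The fit dropped 1 array for 3 members (Ndufa6, Atp5o and Cox7c). The comparison used limma 3.58.1 (R 4.3.3) with Benjamini-Hochberg adjustment over all 14829 features. The fit was also run on simulated data, whose noise was independent between arrays and held no scan day or slide scan grouping. The number of arrays limits the precision. Alternatives were the scaling, normexp (offset 50, on median signals because mean signals were not in the files), the filter, the mean of probes, the value table, scan day and slide scan as blocks, the one-way analysis of variance of the study's methods, and leaving out each array.

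Members, lists and rules were chosen with earlier results of these data known. The genes named in each complex were up to 6 with the smallest p, all past a fold of 2 at p of 0.05, all members well above background on every array of only one group, and all members of groups of 4 or fewer. Outside the members up to 3 genes per list were named by p. Further members are named for their role, chosen after their values were seen. Promoter windows came from RefSeq, with the most upstream listed start standing for a gene. Python 3.11.15 with pandas 2.3.3 and matplotlib 3.10.9 served the other steps. The values of 1 tested member are not reported here, although it stays in the counts over all members.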

Additional observations from a re-analysis of the deposited data

How the results depend on the processing

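No paired analysis was possible because the replicate numbers of the groups (1 to 3 and 4 to 6) do not overlap. Scan day, which links array 4 with 2 and array 6 with 1 and 3, was fitted as a block instead. In that fit array 5, alone on its day, adds nothing to the group difference. The count of 4 members higher at an unadjusted p of 0.05 became 1 after scaling by the array median, 0 among members well above background on all 6 arrays, 1 in the value table of the authors, 11 with scan day as a block and 2 by the methods' analysis of variance. It ran from 2 (without MOD array 1) to 9 (without SA-H array 5) when 1 array was left out. All 4 were absent from the members well above background on all 6 arrays. Ndufaf5 and Cox6a2 were dim on MOD array 1. Ndufa6 and Atp5o were well above background on the 5 arrays measured and lacked only the outlier spot on array 5, so that setting did not refit them. The count of 1 member lower became 3 after median scaling, 6 after quantile normalization, 8 with normexp, 0 without a filter, 2 with the stricter filter, 11 in the value table, 0 with scan day as a block, 2 with slide scan as a random block and 5 by the analysis of variance, and ran from 0 (without any one MOD array or SA-H array 5) to 4 (without SA-H array 4). Members at an adjusted p under 0.05 were 0, but 1 in the value table and 1 with scan day as a block. Over all 16 alternatives the share of members called was 2.22% to 14.4%, below that of all features in each (10.1% to 32.4%). Over all features the adjusted calls were 0, but 1199 after median scaling, 1177 with scan day as a block, 465 with normexp, 157 with slide scan as a random block and 1766 in the value table.

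Scaling by the array median moved the median of all features from -0.02 to -0.34 and with it that of all members to -0.30, complex I to -0.37, its assembly factors to -0.57, complex II to -0.49, complex III to -0.33, complex IV to -0.28 and Cox7a2l to -0.47. Quantile normalization put complex IV at -0.26 and Cox7a2l at -0.49. The value table put complex IV at -0.26, complex V at -0.26, the assembly factors at 0.063 and the tissue-restricted isoforms at -0.080. The isoforms were at 0.049 without a filter, -0.057 with the stricter one and between 0.16 (without SA-H array 4) and 0.84 when 1 array was left out. The assembly factors ran from -0.31 to -0.12 (without MOD array 1).

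Directions turned in the value table, among others, for Atp5a1 (-0.039), Atp5b (-0.22), Atp5o (-0.33), Cox4i2 (-0.49), Cox5b (-0.53), Cox6a1 (-0.61), Cox6c (-0.23), Uqcr11 (-0.55), Uqcrq (-0.26), Ndufaf8 (-0.063), Ndufb3 (-0.12), Ndufa11 (0.10), Ndufaf4 (0.31) and Cox7a2l (0.10), with Cox4i2, Cox5b, Cox6a1, Uqcr11 and Ndufaf4 past the threshold in the opposite direction. Over all members 37 turned negative and 8 positive in it. Directions also turned for Atp5c1 with the mean of its probes (0.55) and Cox6a1 after quantile normalization (-0.32). Median scaling lowered nearly all differences alike, by 0.32, and so turned 26 members negative, among them Cox7a1 (-0.20), Sdhc (-0.23), Uqcr11 (-0.053), Cox6a1 (-0.11) and Cox6b1 (-0.10). Otherwise the cause was not tested.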
